A study of Canis lupus familiaris with 11 samples.

Results

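The array labelled as company B was set against those of companies A and C in thawed stromal vascular fraction (SVF), the pellet of stromal, vascular and immune cells left when fat is digested and the floating fat cells are removed. The comparison takes 3 of the 11 arrays of the series, 1 for company B and 2 for the others, and its members were chosen by sample title alone. All 3 preparations came from visceral fat of one dog, labelled a neutered male Labrador aged 6 years. Portions of about 20 g were shipped on ice to the companies, which each digested the tissue by a proprietary method and froze the cells. After about 1 month the cells were thawed in one laboratory, without further treatment. The remaining 8 arrays came from the SVF of dogs 2 and 3, both labelled with one description, a neutered male German Shepard mix aged 10 years. These were prepared by 1 company and profiled without incubation or after light-activated platelet-rich plasma (PRP) and 6 h at 37 °C. They are used here only to choose 1 array feature where several name a gene, and to size the spread between arrays. The 4 without incubation also serve to place genes by rank. Company, digestion, shipping, freezing and array cannot be told apart, because each company gave 1 array. No p-value is therefore given for any company difference.

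SVF is used in veterinary medicine as a source of mesenchymal stromal cells. A fresh preparation also holds endothelial cells, pericytes, tissue macrophages, lymphocytes and mast cells, and some blood cells. Cells that divide transcribe genes for DNA replication and mitosis, and they draw on sterol, fatty acid and serine synthesis for new membrane and nucleotides. Cells that have just been cut out of a tissue transcribe immediate early genes and cytokines.

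Levels are log2 values, so that a difference of 1 is 2-fold. Difference means the company B level minus the mean of companies A and C. Each of 15947 genes was represented by 1 array feature. The median over all features was 5.14 on the company B array, 5.31 for company A and 5.25 for company C. Signal over background was not measured, so where a level lies near or below these medians, a difference is one between deposited values and not a measured fold. The counts at 2-fold include such genes. One identical value on all 3 arrays was found for 9540 of 32391 features (29.5%), and such features carry no comparison. With the features in 4 equal bins of level, 40.2% and 40.6% of the 2 dimmer bins and 11.5% of the brightest had it.

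Company B stood apart from both others. Its array was at least 2-fold from company A in 1610 genes (10.1%) and from company C in 1552 (9.73%). Companies A and C were that far apart in 261 genes (1.64%). Company B was at least 2-fold above A in 720 genes (4.51%) and below it in 890 (5.58%), and above C in 609 (3.82%) and below it in 943 (5.91%). Company A was above C in 68 (0.426%) and below it in 193 (1.21%). The root mean square difference over genes was 0.71 log2 units between B and A, 0.73 between B and C and 0.31 between A and C. Among the 6430 genes with 3 distinct values, 23.8% were at least 2-fold apart between B and A, 22.8% between B and C and 3.86% between A and C. In dogs 2 and 3, the 2 arrays of one group were at least 2-fold apart in 1.11% to 1.84% of genes in 3 groups and in 4.73% in the PRP group of dog 3. Those 8 arrays have medians of 6.76 to 6.85, well above the company arrays, so the 2 sets were treated as normalized separately and stand beside each other only as a scale. The central 95% of differences between untreated duplicates ran from -0.67 to 0.76 in dog 2 and from -0.57 to 0.80 in dog 3. After PRP it ran from -0.68 to 0.69 in dog 2 and from -1.17 to 0.85 in dog 3, the last beyond the limit of 1 log2 unit used below.

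**Figure D1:**
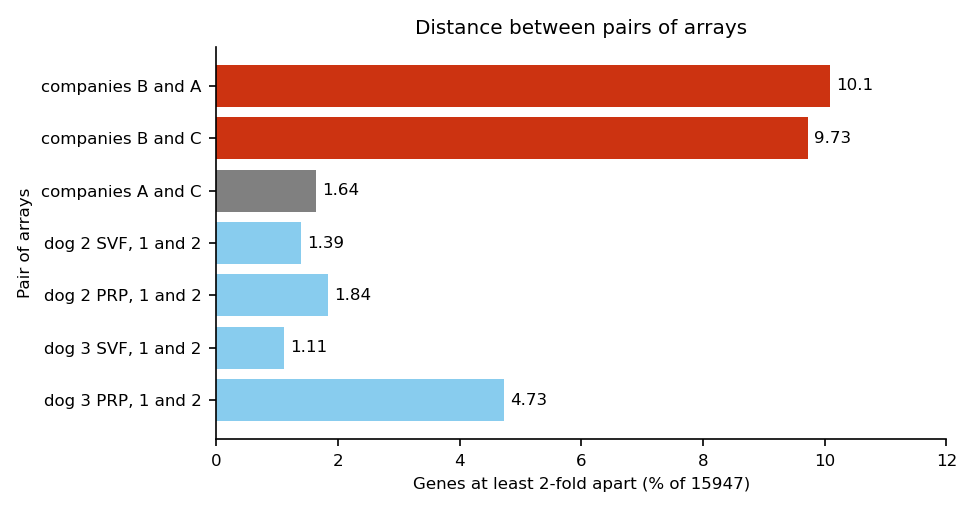
Bars give the percentage of 15947 genes at least 2-fold apart between 2 arrays, for the 3 pairs of companies (red where company B is one of the pair, grey for A and C) and for the 2 arrays of each group of dogs 2 and 3 (blue). Both pairs with company B reach about 10% (10.1 and 9.73), while A and C differ in 1.64%.

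Relative to the mean of the others, 617 genes were at least 2-fold higher in company B (3.87% of those compared) and 890 at least 2-fold lower (5.58%). These 2 shares of all genes are the background for each list count below. A stricter count took genes beyond both arrays. By it 453 genes lay at least 2-fold above both A and C (2.84%) and 733 at least 2-fold below both (4.6%). The balance of directions depended on scaling: with each array centred on its median, 834 genes were at least 2-fold higher and 780 lower, and 596 lay above and 636 below both. Companies A and C had the same value in 44 of these 453 genes and in 33 of the 733, so their closeness is no separate observation there.

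**Figure D2:**
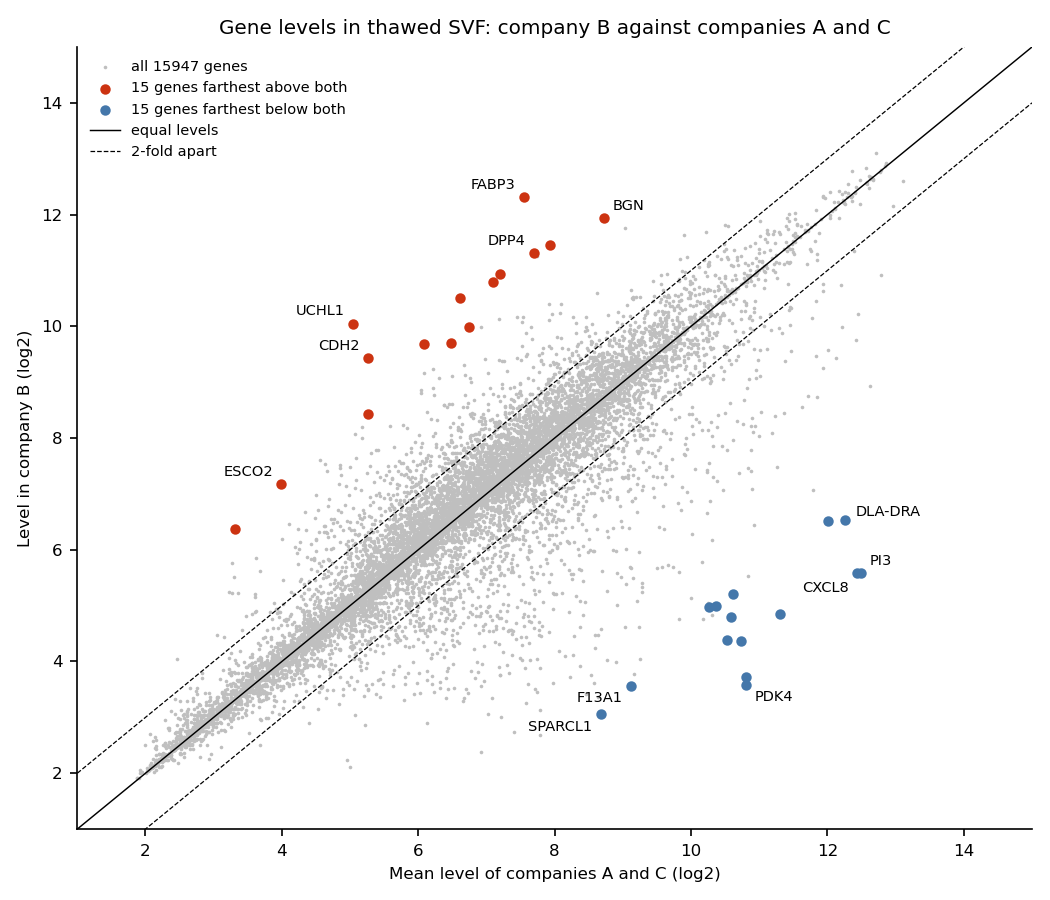
Each point is a gene, placed by its mean log2 level in companies A and C and its log2 level in company B, with lines for equal levels (solid) and 2-fold distance (dashed). The 15 genes farthest above both other companies (red) and the 15 farthest below (blue) are marked; the lower side reaches farther, down to PDK4 at 3.58 against 10.89 and 10.72.

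Among the genes farthest above both companies, ordered by the gap between deposited values, UCHL1 came first. This deubiquitinase, abundant in neurons, stood at 4.91 in company A, 10.05 in company B and 5.18 in company C. FABP3, a fatty acid binding protein best known from heart and skeletal muscle, was at 7.85, 12.31 and 7.24 in the same order. CDH2, the adhesion molecule N-cadherin, was at 5.39, 9.42 and 5.15. In each of the 3 genes company B alone was high, as the choice of genes required. For UCHL1 and CDH2 the A and C levels were near or below the array medians. A second feature of CDH2 gave a difference of 4.20, against 4.16 for the feature used.

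Enzymes of amino acid and lipid synthesis and proteins of cell division filled much of the remainder. ASNS, asparagine synthetase, was at 6.42 in company A, 10.50 in company B and 6.79 in company C, and PSAT1, an aminotransferase of serine synthesis, at 6.59, 9.99 and 6.90. SQLE, squalene epoxidase, was at 7.28, 10.94 and 7.12, and DHCR7, the enzyme of the last step to cholesterol, at 6.43, 9.70 and 6.52. FADS1, a fatty acid desaturase, was at 7.84, 11.46 and 8.01. These are 5 enzymes of anabolic pathways with company B as the high sample. ANLN, the anillin of the contractile ring in cytokinesis, was at 6.10, 9.69 and 6.07, and ESCO2, which acetylates cohesin in S phase, at 3.97, 7.17 and 4.02. The other genes farthest above both were DPP4, a surface dipeptidase (7.63, 11.31 and 7.76), LCN2, a secreted siderophore-binding protein (6.61, 10.80 and 7.57), BGN, the matrix proteoglycan biglycan (8.61, 11.94 and 8.84), ANXA8L1, an annexin (5.16, 8.43 and 5.36), and ABCB4, a phospholipid transporter (3.25, 6.38 and 3.36).

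The genes farthest below both companies were high in A and C. In company B most were below the array median, PI3, CXCL8 and CILP were a little above it, and DLA-DRA and PI16 were higher, though under the upper quartile of 7.00. PDK4, a kinase that shuts carbohydrate out of mitochondrial oxidation, was at 10.89 in company A, 3.58 in company B and 10.72 in company C. FGL1, a secreted fibrinogen-related protein, was at 10.92, 3.72 and 10.70, and PI3, the protease inhibitor elafin, at 12.38, 5.59 and 12.60. CXCL8, the neutrophil-attracting chemokine, was at 12.28, 5.58 and 12.59. All 4 were well up the scale on 2 arrays and in the middle or lower part on the third. The class II antigen-presentation genes followed with DLA-DQA1 (11.28, 4.85 and 11.34) and DLA-DRA (12.23, 6.54 and 12.29). Secreted and matrix proteins made up 5 more: PRG4, the lubricating proteoglycan lubricin (10.49, 4.38 and 10.56), THBS4, a thrombospondin (10.29, 4.36 and 11.17), SPARCL1 (8.55, 3.05 and 8.79), PI16, a marker of fibroblasts around vessels (11.94, 6.51 and 12.09), and CILP (10.49, 5.22 and 10.74). The last 4 were the chemokines CXCL14 (10.56, 4.80 and 10.60) and CCL7 (10.34, 4.98 and 10.20), F13A1, a coagulation factor subunit of macrophages and platelets (9.31, 3.57 and 8.92), and RGS1, a signalling regulator of lymphocytes (10.35, 5.00 and 10.39).

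**Figure D3:**
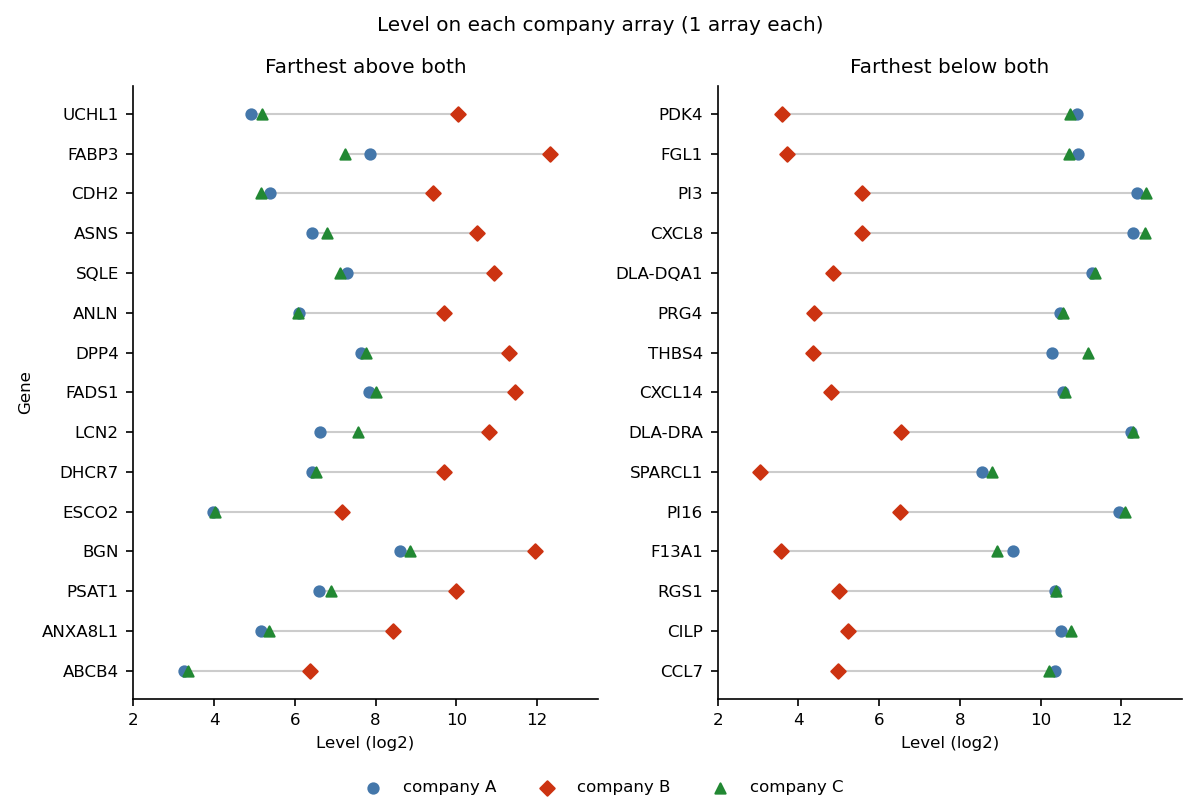
Points give the log2 level of each gene on the array of company A (circle), B (diamond) and C (triangle), 1 array each, for the 15 genes farthest above (left) and below (right) both others. Company B alone is apart in all 30 by the rule that picked them. A and C lie less than 1 log2 unit from each other, with LCN2 (6.61 and 7.57) and THBS4 (10.29 and 11.17) near that limit. Several of the low values lie below the array medians.

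The labelled SVF was then checked against markers of its cell types, which in bulk RNA cannot tell fewer cells of a type from less RNA per cell. Stromal markers were among the higher genes on all 3 arrays, though 8 of 24 were at least 2-fold lower in company B (5.58% of all genes were). The median level of the list was 10.05 in company A, 9.84 in company B and 10.13 in company C. DCN, the proteoglycan decorin, was at 13.16, 12.60 and 13.07, PDGFRA, a growth factor receptor of adipose progenitors, at 10.16, 9.30 and 9.96, and PDGFRB, its relative on stromal and mural cells, at 9.19, 9.34 and 8.95. These 3 defining markers stayed within 1 log2 unit of the other companies, while the leukocyte and endothelial markers given next were often low. The labels call the company B sample untreated SVF and do not give the steps between digestion and freezing, and whether these were alike at the companies, culture included, was not tested.

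Single members of the stromal list were far apart, in both directions. Beside the 8 lower members 2 were at least 2-fold higher (8.33%, against 3.87% of all genes), with a median difference of -0.61 (0 over all genes). DPP4 and PI16, which mark the same adventitial progenitors in mouse fat, went opposite ways, with differences of 3.61 and -5.50. CD34, the surface sialomucin of fresh adipose progenitors, was at 10.92 in company A, 8.11 in company B and 10.89 in company C. CXCL12, the stromal chemokine that retains blood progenitors, was at 12.50, 9.76 and 12.35. The surface molecules used to define mesenchymal stem cells were split in the same way. THY1 (CD90) was at 11.39, 11.82 and 11.73 and ENG (CD105) at 8.25, 8.39 and 8.31, both alike on the 3 arrays. NT5E (CD73) was at 6.08, 4.36 and 6.07, and VCAM1, a leukocyte adhesion receptor, at 8.72, 4.84 and 8.10. Of 19 such surface genes, 3 were at least 2-fold higher (15.8%, against 3.87% of all genes) and 6 lower (31.6%, against 5.58%).

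Most leukocyte genes were lower in company B. Over 7 leukocyte lists with 126 distinct measured genes, 91 were lower by any amount, 28 identical and 7 higher. Of them 61 were at least 2-fold lower and 1, LCN2, was at least 2-fold higher, against 5.58% and 3.87% of all genes. Of the 126, 84 were above the array median in company A, 86 in company C and 49 in company B. PTPRC, the CD45 phosphatase carried by all leukocytes, was at 8.91 in company A, 3.37 in company B and 8.36 in company C, which put it at the 22.0 percentile of all features on the company B array. All 15 genes of the pan-leukocyte list were lower and 13 of them at least 2-fold, including CD53, a tetraspanin (9.25, 5.09 and 9.17), and CD48, an adhesion ligand (8.03, 4.46 and 8.52). The log2 of their summed linear levels was 12.62 in A, 9.63 in B and 12.74 in C.

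Among the lists of single leukocyte types, macrophages and monocytes had the lowest median. Of 24 genes, 17 were at least 2-fold lower and 0 at least 2-fold higher, with a median difference of -2.31. By any amount 20 were lower, 2 identical and 2 higher than the mean of A and C. The 2 higher were GPNMB (11.51, 12.02 and 11.37 in A, B and C) and TREM2 (6.85, 6.81 and 6.50). C1QC, chosen after its values were seen, hardly differed (6.42, 6.33 and 6.42). CD163, a scavenger receptor, was at 7.69, 4.55 and 6.51 in companies A, B and C, CD68 at 7.72, 5.81 and 8.46, and CD14, the endotoxin co-receptor, at 7.27, 6.24 and 7.79. LYZ, lysozyme, had the widest difference (9.88, 4.77 and 10.46), followed by AIF1 (7.97, 4.09 and 8.33), MRC1, the mannose receptor (10.03, 5.69 and 9.13), and CSF1R, the receptor of the macrophage growth factor (9.07, 5.38 and 9.03). Not every myeloid gene was at the bottom of the scale in company B: 14 of the 24 were still above the array median, against 21 in A and 21 in C. The class II and dendritic list had 9 of 16 genes at least 2-fold lower, among them CD74, the invariant chain (11.79, 7.07 and 11.79), CD83, a marker of mature dendritic cells (10.08, 6.17 and 10.54), and DLA-DMA, a peptide-loading subunit (9.56, 7.45 and 9.70).

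T and NK cell genes had 10 of 28 at least 2-fold lower (35.7%, against 5.58% of all genes). The signal chains of the T cell receptor were CD3D at 6.12, 3.64 and 6.51 in A, B and C, CD3E at 6.60, 3.52 and 6.46, and CD3G at 7.54, 4.30 and 7.52. IL7R, the receptor of a T cell survival factor, was at 7.73, 3.12 and 7.83, and CD2, an adhesion receptor, at 7.27, 3.07 and 6.77. All 5 T cell genes named so far were below the array median in company B and above it in both others. IL7R and CD2 were named for their wide differences. Of the 28, 21 were lower, 6 identical and 1 higher, and 8 were above the array median in company B. CD4 (5.48, 5.48 and 5.60) and CD8A (5.35, 5.25 and 5.35), chosen after their values were seen, hardly differed. B and plasma cell genes had 5 of 18 at least 2-fold lower (27.8%). The widest was JCHAIN, the joining chain of secreted antibody (11.37, 7.48 and 11.14). B cell surface genes were low everywhere: MS4A1 (CD20) was 3.85 on all 3 arrays, CD79A was 5.45, 5.26 and 5.45, and CD79B was 5.71, 5.63 and 6.06. Mast cell genes had 5 of 10 at least 2-fold lower (50.0%). CPA3, a granule carboxypeptidase, was at 6.50, 3.53 and 6.14 and FCER1A, a chain of the IgE receptor, at 6.44, 3.89 and 6.42. None of the 10 mast cell genes was above the array median in company B, against 5 in A and 5 in C.

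Genes of blood cells differed between A and C as well, so the difference from their mean says less there. The calgranulins of neutrophils were S100A8 at 6.68, 4.43 and 8.48, S100A9 at 6.74, 4.46 and 8.86 and S100A12 at 6.32, 4.57 and 8.34 in A, B and C, with company B lowest and C highest. LCN2, which the same list holds as a neutrophil granule protein and which epithelial and fat cells also make, went the other way. Of 16 neutrophil genes, 10 were identical on all 3 arrays. Erythroid genes had 4 of 15 at least 2-fold lower (26.7%, against 5.58% of all genes) and 9 identical. ALAS2, which starts haem production in red cell precursors, was at 9.33, 4.11 and 7.22, AHSP, a chaperone of alpha globin, at 7.97, 2.73 and 6.84, and HEMGN, a nuclear protein of the same cells, at 9.52, 4.24 and 7.67, in each case with A highest and B lowest. PPBP, the platelet chemokine precursor, was at 5.62, 5.08 and 11.14, so company C alone was high, and ITGA2B, a platelet integrin chain, was at 4.77, 5.13 and 5.91. The platelet list did not set company B apart from company A: its median B minus A difference was 0 and its median B minus C difference -1.40.

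Of 22 endothelial genes 17 were lower, 3 higher and 2 identical, with 7 at least 2-fold lower (5.58% of all genes) and 0 at least 2-fold higher (3.87% of all genes). PECAM1, the junction protein CD31, was at 8.62 in company A, 3.99 in company B and 9.18 in company C. CDH5, the cadherin of endothelial junctions, was at 6.74, 4.32 and 7.64, EMCN, a surface sialomucin of capillaries, at 3.79, 2.12 and 6.21, and LYVE1, a hyaluronan receptor of lymphatic endothelium and some macrophages, at 8.97, 5.67 and 9.28. VWF, the von Willebrand factor, was at 5.86, 4.96 and 5.86. Company B was the low sample in all 5, and 10 of the 22 genes were above its array median, against 14 in A and 17 in C. The median difference of the endothelial list was -0.36. Some members hardly differed, such as EGFL7 (7.10, 7.07 and 7.10) and SOX17 (5.87, 5.80 and 5.80), chosen after their values were seen. Many, not all, endothelial and leukocyte genes were thus lower on the same array. The part of one in the other, through genes both cell types use such as PECAM1 and LYVE1, was not tested.

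Mural and contractile genes were split. ACTA2, smooth muscle actin, was at 6.40, 8.38 and 6.79 in A, B and C, TAGLN, the actin-binding protein transgelin, at 7.75, 9.81 and 8.33, and TPM2, a tropomyosin, at 5.50, 6.94 and 5.09. MYH11, the myosin of mature smooth muscle, was 4.02 on all 3 arrays, and ABCC9, a potassium channel subunit of pericytes, was at 6.79, 4.65 and 6.87. Company B was thus high for 3 actin-associated genes and low for a pericyte gene, and smooth muscle myosin gave no comparison. Of 18 genes in that list 3 were at least 2-fold higher (16.7%, against 3.87% of all genes) and 2 lower (11.1%, against 5.58%). In a list of cadherins and the actin cytoskeleton, 5 of 19 were at least 2-fold higher (26.3%) and 0 lower, led by CDH2. VIM, the mesenchymal filament vimentin, was at 12.90, 12.93 and 12.82, and CDH11, the cadherin of mesenchyme, at 8.57, 9.54 and 8.58.

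Of the 3 defining genes of mature fat cells, PLIN4 was below the array medians. PLIN1 and ADIPOQ were above them, ADIPOQ up to the 72.6 percentile in company C. PLIN1, a lipid droplet coat, was at 5.87, 5.72 and 6.22 in A, B and C, ADIPOQ, the hormone adiponectin, at 6.06, 5.40 and 6.85, and PLIN4 at 3.62, 2.97 and 3.75. The median percentile of 21 adipocyte genes within an array was 45.3 in A, 47.9 in B and 55.6 in C, against 90.3 to 97.7 in the untreated arrays of dogs 2 and 3, a set treated as normalized separately. Of the 21, 9 were above the array median in A, 10 in B and 14 in C. RBP4, a retinol carrier chosen after its values were seen, was high throughout at 10.19, 11.81 and 10.79. Other members differed widely between companies: LPL, lipoprotein lipase, was at 9.48, 5.33 and 9.07, PPARG, the regulator of fat cell formation, at 7.83, 5.39 and 7.25, SCD, stearoyl-CoA desaturase, at 8.72, 11.76 and 9.36, and FASN, fatty acid synthase, at 5.98, 7.84 and 6.12. The lipase and the regulator were low and the 2 synthesis enzymes high in company B. Mesothelial genes, which line visceral fat, had 10 of 18 identical values. UPK3B was at 5.44, 6.46 and 6.04, WT1 was 4.25 on all 3 arrays, and only CDH2, PRG4 and CALB2 of that list were 2-fold apart. Of 37 distinct genes of skeletal muscle, epithelium and Schwann or neural cells, 4 were above the array median in B, 5 in A and 3 in C, and 17 were identical. At such levels their count of 0 at least 2-fold apart says little.

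**Figure D4:**
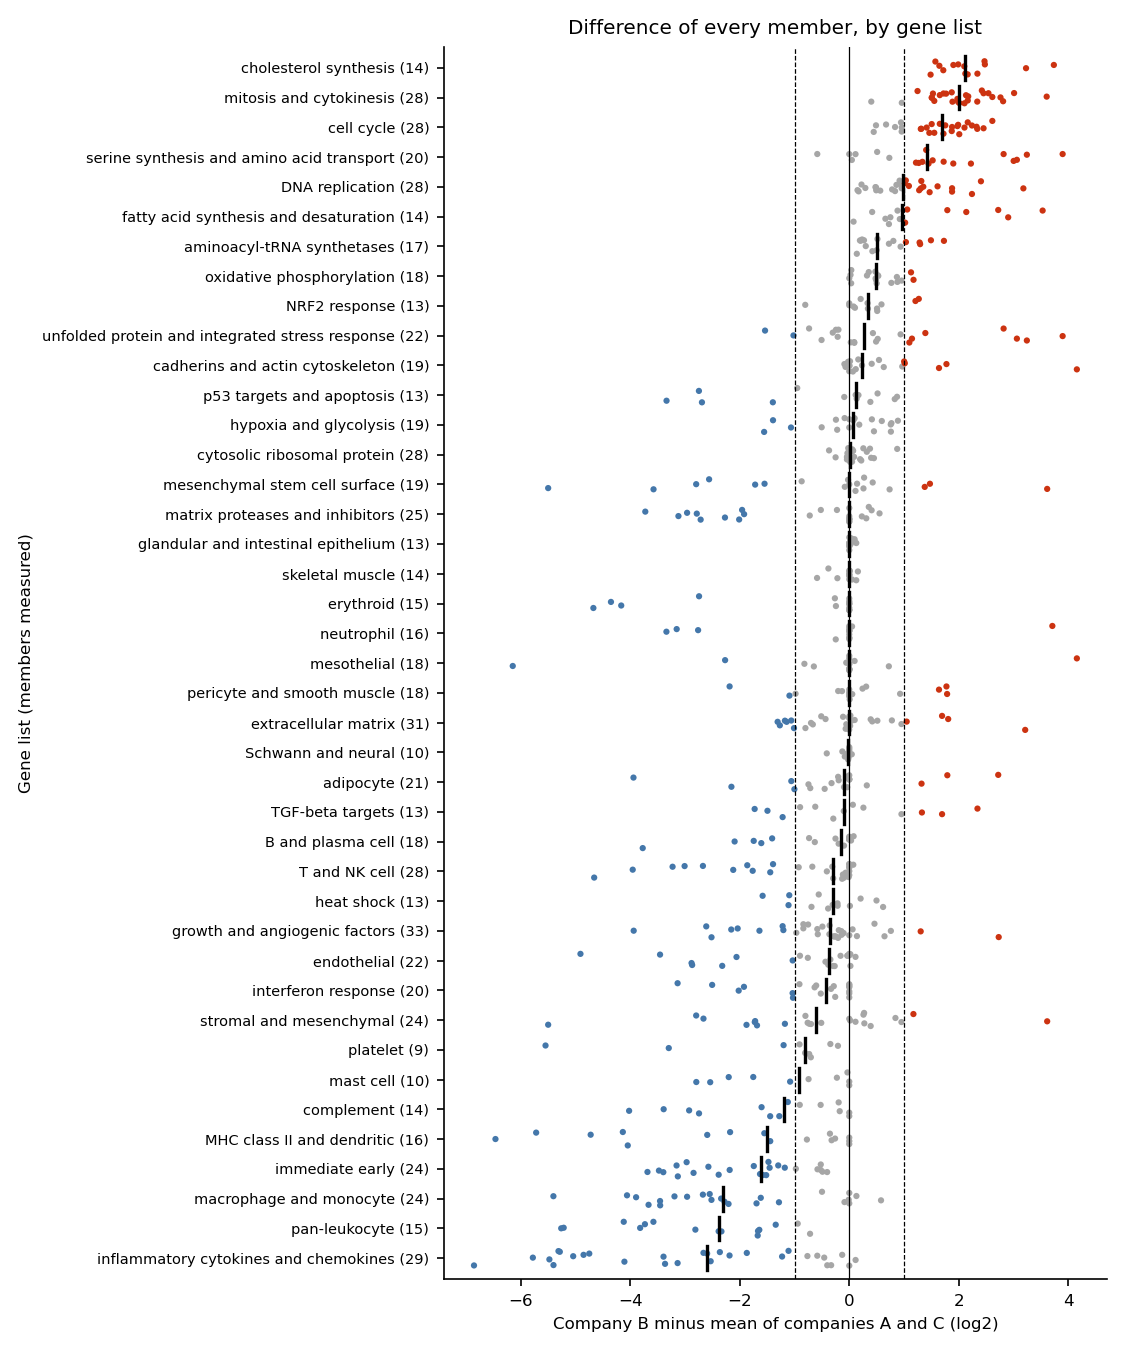
Every measured member of 41 gene lists is a point, placed by company B minus the mean of companies A and C in log2 units, red at 2-fold higher or more and blue at 2-fold lower or more; black bars are list medians, and the number of members stands in brackets. Cholesterol synthesis lies wholly above the upper 2-fold line, and the 6 lists at the bottom, from complement to cytokines, have medians below the lower line.

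Genes of cell division were higher in company B. Over the 3 lists of cell cycle, DNA replication and mitosis, which share members, there were 62 distinct genes. All 62 were higher (38.6% of all genes were higher and 28.6% lower by any amount) and 44 of them at least 2-fold (3.87% of all genes). In company B 61 were above the array median, against 47 in A and 42 in C. CDK1, the kinase that starts mitosis, was at 4.58, 7.47 and 5.13 in A, B and C, PLK1, a mitotic kinase, at 5.85, 8.23 and 5.70, and KIF20A, a kinesin of the cleavage furrow, at 4.73, 7.18 and 4.94. BIRC5, the survivin of dividing cells, was at 6.57, 9.08 and 6.94. MKI67, which encodes the proliferation antigen Ki-67, was at 7.01, 7.86 and 5.87, and TOP2A, a topoisomerase of dividing cells, at 6.84, 8.68 and 6.79. The 6 genes have company B as the high sample, by the least margin in MKI67.

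Mitosis and cytokinesis genes differed more than those of replication. Of 28 mitosis genes 26 were at least 2-fold higher, with a median difference of 2.00, and of 28 replication genes 14 were, with a median of 0.99. Both lists were chosen after the values were seen, and no test was made between them. DLGAP5, a spindle protein, was at 5.93, 8.85 and 6.16, CDCA3 at 6.56, 9.23 and 5.89 and PBK, a mitotic kinase, at 6.14, 8.81 and 5.95. For replication, CDC6, which loads the helicase at origins, was at 5.51, 7.79 and 5.26, RRM2, the regulated subunit that makes deoxynucleotides, at 6.97, 9.01 and 6.56, and GINS2, a helicase subunit, at 4.26, 6.14 and 4.26.

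Cholesterol synthesis was the most uniform list, with all 14 measured genes at least 2-fold higher in company B, from 1.48 to 3.74 and a median difference of 2.11. HMGCS1, which makes the precursor of mevalonate, was at 7.06, 9.44 and 7.84 in A, B and C, LSS, which closes the sterol rings, at 5.27, 7.47 and 4.74, and INSIG1, a feedback regulator of the pathway, at 7.82, 10.40 and 8.03. Fatty acid synthesis and desaturation had 7 of 14 at least 2-fold higher and all 14 higher. ELOVL6, which elongates saturated fatty acids, was at 4.78, 7.53 and 4.47, FADS2, a desaturase, at 7.52, 9.65 and 7.52, and ACLY, which makes cytosolic acetyl-CoA, at 8.30, 9.34 and 8.53. FADS1, SCD and FASN, with levels above, belong to the same list.

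Serine synthesis and amino acid transport followed the same direction, with 14 of 20 at least 2-fold higher and 0 lower. PHGDH, the first enzyme of the serine pathway, was at 4.79, 8.00 and 5.57 in A, B and C, PSPH, the last, at 7.18, 9.20 and 7.42, SHMT2, which passes serine carbon to folate in mitochondria, at 6.64, 9.98 and 7.20, and SLC6A9, a glycine transporter, at 4.93, 8.07 and 5.22. With ASNS and PSAT1 above, they belong to a set known to be driven by the transcription factor ATF4. The mRNA of ATF4 itself was at 11.61, 11.67 and 12.13. The targets DDIT3 and TRIB3 were at 7.74, 8.51 and 9.11 and at 5.38, 5.89 and 5.55. Whether ATF4 had a part in these levels was not tested. In the wider list for unfolded proteins and the integrated stress response, 7 of 22 were at least 2-fold higher (31.8%, against 3.87% of all genes). These 7 include ASNS, PSAT1, PHGDH and SHMT2, already given above. In that list 2 were at least 2-fold lower (9.09%, against 5.58%), and the median difference was 0.26. By any amount 14 were higher and 8 lower. Members chosen after their values were seen were CHAC1 (4.76, 6.59 and 5.63) and SESN2 (5.16, 6.82 and 6.29) among the higher. Among the lower, chosen likewise, were XBP1 (9.15, 8.55 and 9.42) and HSPA5 (11.15, 11.15 and 11.74). Aminoacyl-tRNA synthetases had 17 of 17 genes higher and 5 at least 2-fold, led by CARS1 (6.58, 8.20 and 6.36).

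Housekeeping lists were closer together. Oxidative phosphorylation had 17 of 18 genes higher and 2 at least 2-fold (11.1%, against 3.87% of all genes), with a median difference of 0.49. NDUFV1, a complex I subunit, was at 6.98, 8.28 and 7.23 in A, B and C, and SDHB, a complex II subunit, at 8.40, 9.61 and 8.56. Cytosolic ribosomal proteins had 0 of 28 at least 2-fold apart in either direction, with differences from -0.37 to 0.88 and a median of 0.0084. In the NRF2 oxidative stress list 2 of 13 were at least 2-fold higher (15.4%, against 3.87% of all genes). They were SLC7A11, the cystine transporter, at 6.49, 8.32 and 7.61, and PIR at 9.60, 10.77 and 9.52. Hypoxia and glycolysis genes had 0 of 19 at least 2-fold higher (3.87% of all genes) and 3 lower (15.8%, against 5.58%). Of the 19, 2 were at least 2-fold below both companies (4.6% of all genes were). By any amount 10 were higher, 7 lower and 2 identical, with a median difference of 0.07. VEGFA was at 9.61, 9.50 and 9.88.

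Cytokines and chemokines had the lowest median of all lists, -2.60, with 21 of 29 genes at least 2-fold lower and 0 higher. IL6 was at 7.84 in company A, 3.77 in company B and 10.50 in company C, IL1A at 8.49, 3.42 and 8.44, and IL1B at 8.34, 4.48 and 8.83. IL1RN, the interleukin-1 receptor antagonist, was at 9.83, 4.84 and 10.79. Only 13 of the 29 were above the array median in company B, against 25 in A and 26 in C. The list holds genes of leukocytes and genes of stroma: among the latter CXCL12 and CXCL14, with levels above, were also low. The pan-leukocyte markers, all 15 of them, were lower on the same array, and their part in this list was not tested.

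Immediate early genes were lower in company B than the mean of A and C in all 24 measured, 18 of them at least 2-fold, with a median difference of -1.60. ZFP36, which destabilises cytokine mRNA, was at 12.21, 8.94 and 13.03 in A, B and C, ATF3 at 10.05, 7.40 and 11.71, NR4A2, a nuclear receptor, at 10.08, 6.88 and 10.47, and EGR2 at 9.74, 7.23 and 11.03. FOS was at 10.78, 9.60 and 11.45 and FOSB at 9.79, 7.39 and 10.69. In these 6 genes company C was highest and company B lowest. That order did not hold for FOSL1 (7.42, 7.52 and 8.67) or, chosen after their values were seen, IER3 (8.38, 8.84 and 10.34) and CCN1 (9.36, 9.61 and 10.85), where company B was above A. In DUSP2 (6.68, 6.26 and 6.65), chosen likewise, company A was highest. The list as a whole was also apart between the others, with a median of -0.90 for A minus C. Unlike the cytokines, all 24 immediate early genes remained above the array median in company B. Heat shock genes were closer, with 3 of 13 at least 2-fold lower (23.1%, against 5.58% of all genes), among them DNAJB4 (8.16, 6.87 and 8.75). Only 1 was at least 2-fold below both companies (4.6% of all genes were). Their median B minus A difference was 0.0013 and their median B minus C difference -0.76, so this list did not set company B apart from company A. The p53 and apoptosis list was divided. It had 4 of 13 at least 2-fold lower (30.8%, against 5.58% of all genes) and 0 at least 2-fold higher. By any amount 7 were higher and 6 lower, with a median difference of 0.12. PMAIP1, a killer BH3 protein, was at 8.21, 5.58 and 9.63 and GADD45B at 11.41, 9.25 and 12.47. CDKN1A, the cycle inhibitor p21, was at 9.40, 10.37 and 10.58.

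Matrix genes differed in both directions. Of 31, 4 were at least 2-fold higher (12.9%, against 3.87% of all genes) and 6 lower (19.4%, against 5.58%). The median difference was -0.0013. Besides BGN, company B was high for POSTN, the matricellular periostin (7.68, 9.79 and 8.51 in A, B and C), and TNC, tenascin C (5.24, 6.67 and 4.49). It was low for LAMA4, a laminin chain of vessel and fat cell basement membranes (11.39, 9.98 and 11.18). The fibrillar collagens COL1A1 (9.94, 11.07 and 10.30), COL1A2 (11.11, 11.50 and 11.11) and COL3A1 (8.79, 8.79 and 8.76) were less than 2-fold from the mean of A and C, though COL1A1 was more than 2-fold above company A. Among proteases and inhibitors 9 of 25 were at least 2-fold lower and 0 higher. PLAU, the urokinase that activates plasminogen, was at 9.36, 6.88 and 10.64, ADAMTS1, an aggrecan protease, at 7.95, 5.45 and 8.87, TIMP4, a protease inhibitor of fat and heart, at 7.72, 5.21 and 8.26, and SERPINB2, an inhibitor of urokinase made by macrophages, at 6.42, 3.35 and 7.73. MMP2, the main gelatinase of stroma, was 11.71 on all 3 arrays.

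Trophic, complement and interferon genes completed the lists. Growth and angiogenic factors had 2 of 33 at least 2-fold higher (6.06%, near the 3.87% of all genes) and 8 lower (24.2%, against 5.58%). GREM1, a BMP antagonist of stroma, was at 7.30, 10.17 and 7.58 in A, B and C, whereas PDGFD, a growth factor for mural cells, was at 9.76, 5.73 and 9.57. ANGPTL4, a lipase inhibitor, was at 7.33, 5.25 and 8.21, and EREG, an EGF receptor ligand, at 5.59, 3.59 and 6.82. Complement genes had 8 of 14 at least 2-fold lower and 0 higher, with C7 of the lytic complex at 8.07, 3.59 and 7.15, C3 at 8.27, 4.52 and 7.55 and CD55, which protects host cells from complement, at 11.42, 8.44 and 11.32. Interferon response genes had 6 of 20 at least 2-fold lower (5.58% of all genes were). Only 4 were at least 2-fold below both companies (4.6% of all genes were). By any amount 13 were lower, 7 identical and 0 higher, with a median difference of -0.43. ISG15 (6.32, 4.64 and 7.97) was among the lower, but company C was also well above A for it. TGF-beta targets were divided, 3 of 13 at least 2-fold higher (23.1%, against 3.87%) and 3 lower (23.1%, against 5.58%). LTBP2, a binding protein of latent TGF-beta, was at 7.39, 9.99 and 7.91 and TGFBI at 8.84, 7.09 and 8.78.

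The company arrays were last set beside the 4 arrays of SVF from dogs 2 and 3 without incubation, for which the labels mention no freezing. These were other animals, their SVF was made by 1 company, and their arrays were treated as normalized separately, so only ranks among all features of an array were compared. Across 15947 genes the rank correlation with the 4 untreated arrays of those dogs was 0.882 to 0.917 for company A, 0.841 to 0.862 for company B and 0.882 to 0.916 for company C, as a description across genes that are not independent. Of the 443 genes at least 2-fold above both companies and above the median in company B, 388 (87.6%) had a higher percentile in company B than on any of those 4 arrays. Over all genes 38.0% did. Of the 710 genes at least 2-fold below both, with A and C above their medians, 634 (89.3%) ranked lower in company B than on all 4, against 38.1% of all genes. Both shares include genes picked for an extreme company B value, so they describe and do not test. CDH2 was at the 94.8 percentile in company B and between 33.0 and 36.3 in the 4 untreated arrays. PTPRC, at 22.0 in company B, was between 76.1 and 92.5 there.

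By list, mitosis genes had a median percentile of 58.6 in A, 82.2 in B and 58.5 in C, against 36.2 to 46.7 in the untreated arrays of dogs 2 and 3. Cholesterol synthesis stood at 73.1, 94.7 and 75.2, against 63.3 to 70.6. Pan-leukocyte genes were at 85.6, 53.9 and 88.2, against 76.2 to 91.3, so companies A and C lay within the range of the other dogs and company B below it. Stromal markers were at 96.8, 96.3 and 96.7, against 96.0 to 97.0, with all 3 companies inside that range. Endothelial genes were lower than in those dogs on all 3 company arrays, at 58.8, 48.2 and 61.9 against 78.4 to 92.7.

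**Figure D5:**
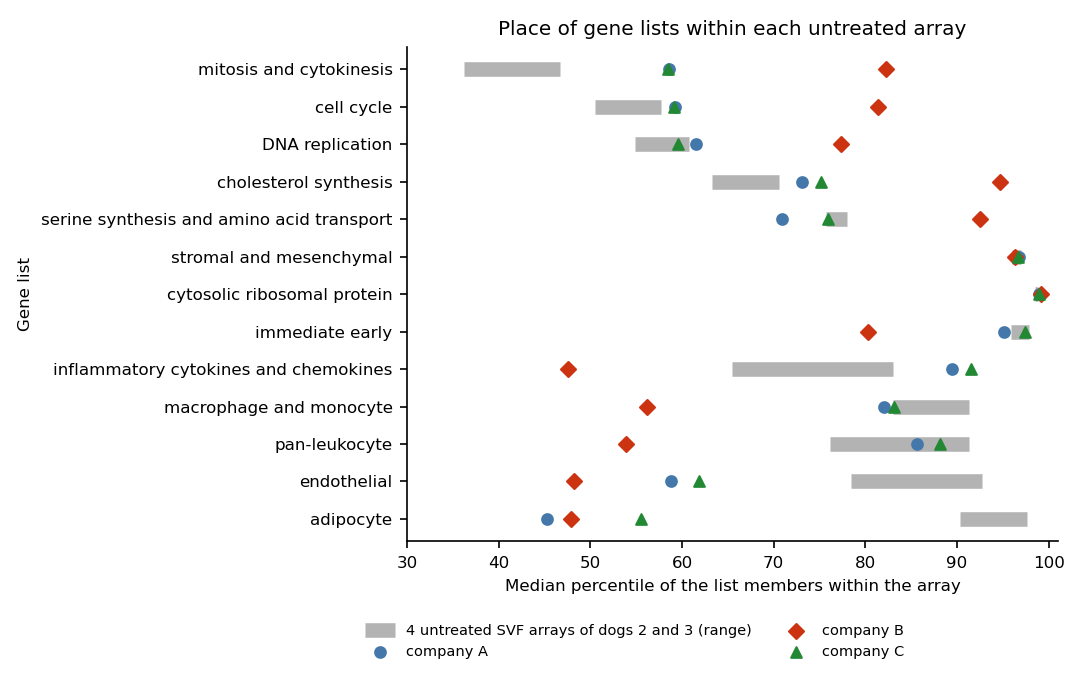
For 13 gene lists the median percentile of the members within each array is plotted for companies A (circle), B (diamond) and C (triangle), with grey bars for the range over the 4 untreated SVF arrays of dogs 2 and 3. Company B lies above the bars and both companies for the division, sterol and serine lists, below them for the cytokine, immediate early, macrophage, pan-leukocyte and endothelial lists, and close to them for stromal and ribosomal genes. Adipocyte genes are far below the bars in all 3.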

How the data were processed

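Biotin-labelled RNA, from 6 µg per sample, was prepared by the Affymetrix protocol, per the labels, for single-colour arrays. The values the authors deposited lie between 1.22 and 14.8 and were taken as log2 levels. Partek appears in the submitters' processing notes. Neither summarization, normalization nor genome build is given in those sources, and no cause of the identical values on the company arrays was tested.

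In the platform annotation 16545 features named 1 gene, 370 several and 15476 none. Of the first, 15820 were matched to UU_Cfam_GSD_1.0 by gene identifier, with 0 symbols differing. Where several features named a gene, the one brightest on average in dogs 2 and 3 stood for it, so the company arrays had no part in the choice. Calculations used Python 3.11.15 and pandas 2.3.3, with no filter, and counting was tested on simulated data.

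Named genes were up to 15 in each direction with the widest gap beyond both companies and, where high, above the array median. Of each list, the first 3 measured members and up to 4 with the widest difference could be named. For lists of pathways the naming of first members was chosen after their values were seen. Members and lists were chosen with earlier results of these data known, and 8 of the 41 lists (pan-leukocyte, mesenchymal surface, cytoskeleton, fatty acid, serine, synthetase, replication and mitosis) after the values were seen.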

Additional observations from a re-analysis of the deposited data

How the results depend on the processing

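Each company gave 1 array, which limits precision, and every value is a description. Scaling bears on the balance of directions: with each array centred on its median the median difference over all genes was 0.14, and with quantile normalization 0.10, against 0. No count at 2-fold moved by over 1.5 times under either, with the mean of a gene's features, with the feature brightest on the company arrays, with dim, identical or tied genes left out (the last chosen after seeing the data), or, for the first 2 counts, against company A or C alone. The same held for the counts of members at least 2-fold apart in the 15 lists with 8 or more such members in 1 direction, in the settings run on them.

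Counts moved with the threshold and with the features counted. At 1.5-fold, 1597 genes were higher and 1455 lower than the mean of A and C, and 1221 lay above and 1215 below both. At 3-fold these were 195, 502, 144 and 404. Over all features, named or not, they were 1163, 2304, 788 and 1683. The 30 genes farthest beyond both kept their direction in each setting that held them. Their choice by the widest gaps made this all but certain, so it is no check of the result. No paired analysis was possible because each company gave 1 array and no company result comes from a test.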

Other observations

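Of 37 genes at least 2-fold beyond both companies that had more than 1 feature, 26 had all other features in the same direction and 18 had them at least 2-fold apart. Most genes that set company B apart are in none of the 41 lists: 95 of 453 above both and 161 of 733 below both are in any. The lists hold 728 distinct genes of the 15947 compared, a smaller share than either of these. Members and lists were chosen with earlier results of these data known, so the larger shares describe and do not test. Among 15476 features that name no gene, 291 lay at least 2-fold above both companies and 923 below both.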
